A study of Homo sapiens with 32 samples.

Results

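The cAMP phosphodiesterase genes PDE3A, PDE3B, PDE4A, PDE4B, PDE4C, PDE4D, PDE7A, PDE7B, PDE8A and PDE8B were taken by gene symbol, and they made up 10 of the 18583 entries with values among 47137 listed. HGrC1 cells, an established non-luteinized human granulosa cell line, received vehicle (0.05% DMSO, the control) or PFOS (perfluorooctane sulfonate, a persistent fluorinated surfactant) at a concentration of 1, 0.1 or 0.01 µM, renewed at every passage, over 6 or 12 weeks. The 8 groups held 4 libraries each, 32 in all. Within a time the 4 groups came from the same 4 vials of cells, which were frozen on different dates. The study's methods describe cultures of 4 vials exposed for 12 weeks and read after 6 and 12, so the times share these vials. All groups were grown with 10% fetal bovine serum and 100 nM of a steroid, which the sample labels give as estradiol and the study's methods as testosterone. A single cell line was used, so its vials are cultures of 1 line, and the time of exposure cannot be told apart from the time in culture and the harvest.

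Cyclic AMP is the second messenger through which FSH and LH act on granulosa cells. Receptors coupled to the stimulatory G protein switch on adenylyl cyclases, cAMP activates protein kinase A and the exchange factors EPAC, and kinase A phosphorylates CREB, which binds the cAMP response element in promoters. Phosphodiesterases hydrolyse cAMP and so end the signal. PDE4, PDE7 and PDE8 enzymes act on cAMP alone, whereas PDE3 enzymes also act on cGMP. In the ovarian follicle of rodents PDE3A is the main enzyme of the oocyte and PDE4 enzymes that of the granulosa cells, and cAMP itself can induce short transcripts of PDE4B and PDE4D.

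CREB is a factor through which cAMP could act on these genes. Their promoters were therefore searched for the cAMP response element, TGACGTCA, and for its half-site TGACG on either strand. Each full element holds 2 half-sites that overlap. The RefSeq windows on GRCh38.p14, 250 bases before to 50 after each listed start, were available for 8 of the 10 genes, with 32 windows in all, since most of these genes have several starts. The full element was in 2 of the 32 windows, 1 of PDE4A and 1 of PDE7B, and in 1.85% of all 35116 windows. A half-site was in 4 of the 32 windows (12.5%) and in 24.6% of all windows. None of the 6 PDE4B windows held either. The windows of the 3 genes that were called in a comparison below and held a half-site are shown 5′ to 3′ on the strand of the gene, with every half-site, and so also the full element, in capitals. For PDE4A and PDE4D, which have several starts, the window with most half-sites is given.
PDE4A, chr19:10416523-10416822, + strand: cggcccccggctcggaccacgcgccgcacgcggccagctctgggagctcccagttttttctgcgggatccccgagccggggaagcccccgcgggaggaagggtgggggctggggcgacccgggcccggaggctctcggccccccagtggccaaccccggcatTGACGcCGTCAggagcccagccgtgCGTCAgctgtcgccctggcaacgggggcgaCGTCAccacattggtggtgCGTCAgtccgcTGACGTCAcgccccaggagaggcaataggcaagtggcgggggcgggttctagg
PDE7B, chr6:135851451-135851750, + strand: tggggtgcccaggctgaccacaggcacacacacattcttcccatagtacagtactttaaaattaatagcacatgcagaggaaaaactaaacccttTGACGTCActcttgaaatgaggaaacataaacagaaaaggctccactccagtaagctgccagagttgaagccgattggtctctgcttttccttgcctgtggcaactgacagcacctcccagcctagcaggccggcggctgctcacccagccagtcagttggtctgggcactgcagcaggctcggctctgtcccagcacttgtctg
PDE4D, chr5:59587576-59587875, - strand: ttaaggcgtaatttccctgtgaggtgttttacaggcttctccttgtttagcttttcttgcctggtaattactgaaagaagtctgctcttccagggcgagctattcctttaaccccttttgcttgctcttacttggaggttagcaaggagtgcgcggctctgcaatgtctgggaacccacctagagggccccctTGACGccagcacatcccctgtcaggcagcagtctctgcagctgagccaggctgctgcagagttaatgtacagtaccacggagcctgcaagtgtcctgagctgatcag
The PDE4A window held 7 half-sites around its start, the PDE7B window 2, both within the full element that begins 155 bases before the start, and the PDE4D window 1. The read counts are per gene, so the start that the cells used was not measured, and a match describes the sequence only.

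Library depth ranged from 17907057 to 18553350 counts, and no 2 of the 48 replicate pairs within a group were identical. Of the granulosa markers examined, GATA4 (median 74.1 TPM, a level scaled for transcript length and library depth), WT1 (37.3 TPM) and AMH (13.5 TPM) were present, FOXL2 was low (0.635 TPM), CYP19A1 was at 0 in 31 of 32 libraries and the FSH receptor gene FSHR had no value, so the line carried part of the granulosa programme. Counts of 8 liver genes, including ALB and AFP, were summed. At 6 weeks the sums ranged from 41 to 86 in control libraries and from 59 to 103 at 0.01 µM PFOS. They ranged from 200 to 250 at 0.1 µM and from 166 to 202 at 1 µM. At 12 weeks they ranged from 129 to 1044 in control libraries, with replicate 3 the highest. With PFOS they then ranged from 155 to 194 at 0.01 µM, from 164 to 212 at 0.1 µM and from 179 to 251 at 1 µM. In the 6-week control AFP, AHSG and APOB were at 0 and ALB at 0.0139 CPM, the count scaled to library size. APOA1, present in every library, was at 3.29 CPM there. The sums therefore understate the change in the other named genes. At 1 µM and 6 weeks ALB, AFP, AHSG and APOB were higher by 6.67 to 7.52 in log2 fold change (edgeR). At 0.1 µM and 6 weeks the same 4 genes were higher by 6.81 to 7.92. Of 4 leukocyte genes, CD3E was at 0 in all libraries and PTPRC, the pan-leukocyte marker, had a median of 0.08 TPM, whereas CD68 (21.8 TPM) and CD14 (7.68 TPM), which other cells can also transcribe, were present in every library.

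The cells transcribed few of these enzymes at more than a trace. Only 3 genes had a mean of at least 1 TPM in the 6-week control, and the same 3 in each other group. PDE8A, a high-affinity enzyme insensitive to the general inhibitor IBMX, was the highest, with 11.3 ± 0.482 TPM (SD, n = 4), followed by PDE4A, a rolipram-sensitive enzyme, with 6.23 ± 0.139 TPM, and PDE7A, a high-affinity enzyme that rolipram does not inhibit, with 3.42 ± 0.308 TPM. Averaged over the 32 libraries, PDE8A took 49.0% of the summed TPM of the 10 genes, PDE4A 28.4% and PDE7A 14.4%. In each of the 8 groups the lowest PDE8A library lay above the highest PDE4A library, and the lowest PDE4A library above the highest PDE7A library.

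Below these came PDE4B with 0.94 ± 0.125 TPM, PDE7B with 0.932 ± 0.192 TPM and PDE4D with 0.302 ± 0.136 TPM in the 6-week control. PDE4B and PDE7B overlapped in TPM in all 8 groups and could not be ordered, and the lower of them lay above PDE4D without overlap in every group. The remaining 4 genes were near the limit of detection. PDE8B had 0 to 6 counts per library, PDE4C 0 to 5 and PDE3B 0 to 4. PDE3A, the oocyte enzyme, had 2 counts in total, 1 in each of 2 libraries. With so few counts these 4 genes did not enter the test across genes, and differences in them were not detectable at this depth.

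**Figure D1:**
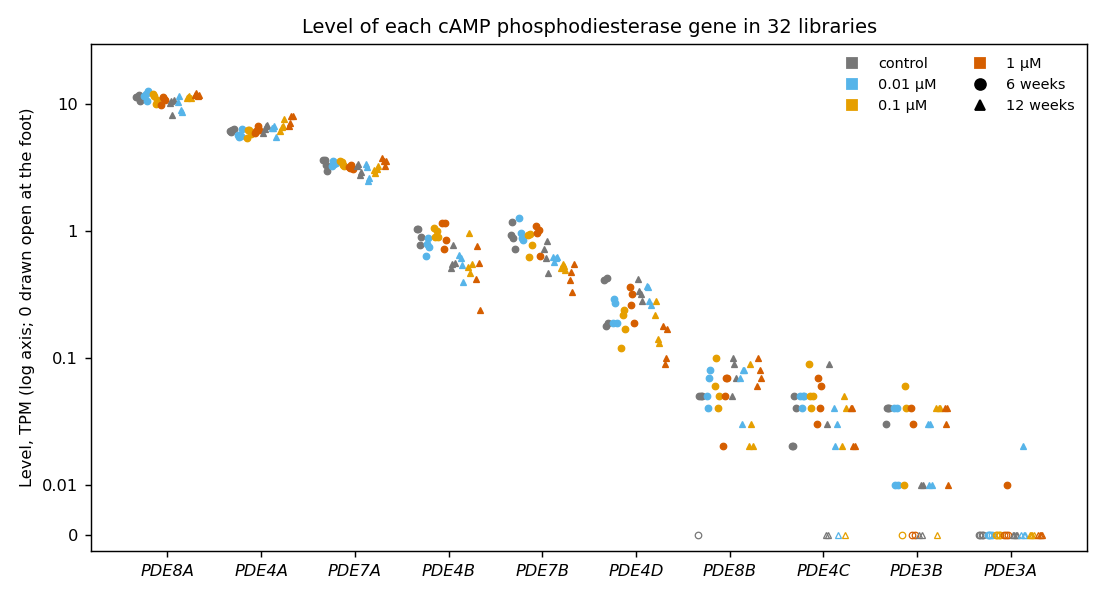
Each point is 1 library (32 per gene), with its level in TPM on a log axis and libraries at 0 drawn open at the foot. Colours give the PFOS dose, circles 6 weeks and triangles 12 weeks. PDE8A, PDE4A and PDE7A stand apart from each other and from the rest, PDE4B and PDE7B overlap, and PDE3A is at 0 in all but 2 libraries.

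The study asked what low doses of PFOS do to granulosa cells over a long exposure, and each dose was therefore compared with the control of its time. The comparisons of 1 time share the control libraries. After 6 weeks none of the 6 tested phosphodiesterase genes was called at any dose (edgeR quasi-likelihood test, Benjamini-Hochberg adjusted p of at most 0.05 over 12836 genes), and none had an unadjusted p under 0.05 in that test. Across all tested genes 0, 4.24 and 0.28% were called at 0.01, 0.1 and 1 µM, and the 544 genes called at 0.1 µM became 22 without vial 3, 77 without vial 4 and 128 without vial 1. At 0.01 µM, where no gene was called, 1232 genes had an unadjusted p under 0.05. For PDE8A, PDE4A and PDE7A the log2 fold changes lay between -0.10 and 0.08 and every 95% interval between -0.22 and 0.20. PDE4B, PDE7B and PDE4D, with fewer reads, were bounded less closely, with PDE4D at 0.1 µM the lowest at -0.43 (SE 0.278).

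After 12 weeks PDE4D, which encodes a rolipram-sensitive enzyme that forms complexes with receptors and kinase anchoring proteins, was lower at 1 µM PFOS. Its deposited expected counts in the 12-week control libraries 1 to 4 were 42.86, 35.38, 33 and 27.97. At 0.01 µM they were 39.75, 37.55, 28 and 28.39. At 0.1 µM they were 24.04, 30.51, 14.01 and 16.2, and at 1 µM they were 18, 11.77, 10 and 16. Every library at 1 µM was below every control library, those at 0.1 µM reached into the control range in 1 library, and those at 0.01 µM lay within the control range. The log2 fold change at 1 µM was -1.31 (SE 0.263, 95% interval -1.86 to -0.77, edgeR adjusted p = 0.0308), a level 0.403 times that of the control. It was the only phosphodiesterase gene called, 1 of 6 tested, where 0.22% of the 12742 tested genes (28) were called, and 0.0157% (2) were called with at least a 2-fold change, PDE4D being 1 of them.

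The call rested on few reads and on all 4 vials. With equal replicate numbers taken as the same vial, PDE4D was lower than its control in 4 of 4 vials at 0.1 µM and in 4 of 4 at 1 µM. At 0.1 µM the groups overlapped, so that count depends on the matching. At 1 µM this follows from the lack of overlap under any pairing. Such agreement was common among the 10 genes at 12 weeks. PDE4A, PDE7A and PDE3B, the last near the limit of detection, were higher in 4 of 4 vials at 1 µM. At 0.1 µM PDE8A was higher and PDE8B lower in 4 of 4, and at 0.01 µM PDE7A was lower in 4 of 4. The share of all genes with such agreement was not computed, so these counts are given as a description. Groups without overlap were found for 6.53% of tested genes at 1 µM. An exact two-sided permutation test of mean log2(CPM + 1), where CPM is the count scaled to library size, gave p = 0.0286, the smallest that 4 libraries against 4 allow, and 0.343 after adjustment over the 60 tests of 10 genes in 6 comparisons. Leaving out any 1 vial ended the edgeR call, with log2 fold changes from -1.47 to -1.20 and adjusted p-values from 0.0673 to 0.267. Without control replicate 3, the library with the most liver transcripts, the log2 fold change was -1.34 and the adjusted p 0.0898. In 26 of the 32 libraries the PDE4D count was not a whole number, because reads that matched more than 1 gene had been divided between them.

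At 0.1 µM and 12 weeks the log2 fold change of PDE4D was -0.71 (95% interval -1.21 to -0.20, edgeR adjusted p = 0.179), and at 0.01 µM it was -0.05 (95% interval -0.52 to 0.42). The doses 1 and 0.1 µM differed by -0.61 (edgeR adjusted p = 0.64), in a comparison that called 0% of genes, with 984 at an unadjusted p under 0.05, and at 6 weeks the same comparison called 0.0857% and again none of the 6. At 6 weeks the same dose of 1 µM had given -0.06 (95% interval -0.60 to 0.49). The difference between the effects at 12 and 6 weeks, tested in 1 fit over the 32 libraries, was -1.25 (SE 0.394, edgeR adjusted p = 0.194) and was not called, so a change confined to 12 weeks was not shown. In this test 0.123% of genes were called, and none of the 6 phosphodiesterase genes. The same tests at 0.1 and 0.01 µM called 0.208 and 0% of genes and also none of the 6. The 6-week control libraries of PDE4D fell into 2 high and 2 low values, 42.3, 20.3, 40.73 and 21.1 counts.

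**Figure D2:**
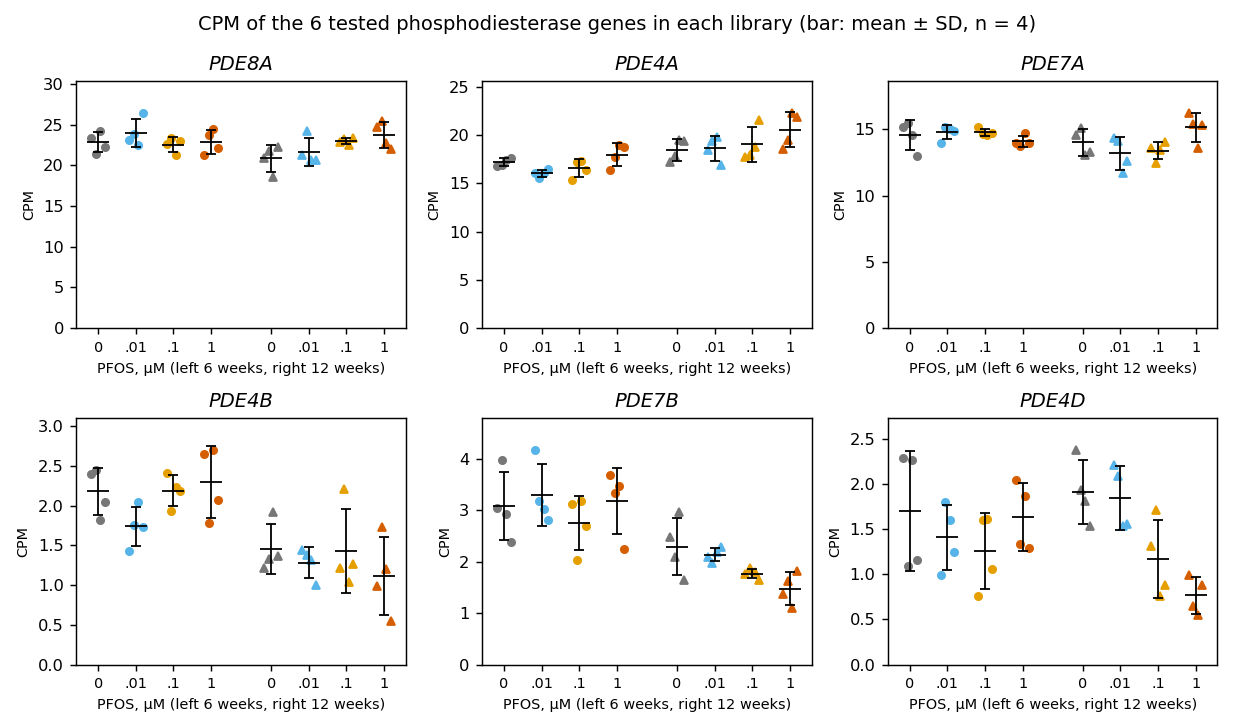
CPM of the 6 tested genes in each library by PFOS dose, 6 weeks on the left and 12 weeks on the right of each panel. Points are libraries and bars the mean ± SD of 4. At 12 weeks PDE4D has 1.91 ± 0.353 CPM in control libraries and 0.768 ± 0.204 CPM in those of the highest dose, whereas the PDE8A, PDE4A and PDE7A panels span narrow ranges.

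The other genes showed no call at 12 weeks. PDE7B, a high-affinity cAMP enzyme, had 45, 38, 54 and 30 counts in the control, 38, 36, 40 and 41 at 0.01 µM, 32, 34, 33 and 30 at 0.1 µM and 25, 30, 20 and 33 at 1 µM. The groups at 1 µM and control overlapped between 30 and 33 counts, and the log2 fold change of -0.63 (95% interval -1.03 to -0.24) had an edgeR adjusted p of 0.246. PDE4B, which encodes the rolipram-sensitive enzyme prominent in immune cells, had 22, 24, 35 and 25 counts in the control and 18, 32, 22 and 10 at 1 µM. These overlapped, and the log2 fold change was -0.38 (95% interval -0.98 to 0.22).

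The abundant genes leaned the other way without passing the test. PDE8A was 0.18 higher on the log2 scale at 1 µM (95% interval 0.04 to 0.33, edgeR adjusted p = 0.448), PDE4A 0.15 higher (95% interval -0.02 to 0.32) and PDE7A 0.11 higher (95% interval -0.06 to 0.28). The summed TPM of the 10 genes was 21.3 ± 1.10 in the 12-week control and 24.3 ± 0.442 at 1 µM, against 23.3 ± 0.825 and 22.7 ± 0.886 at 6 weeks, and it was set by the 3 abundant genes. At 0.1 and 0.01 µM no gene was called, where 1.07 and 0% of all genes were, and at 0.01 µM 1080 genes had an unadjusted p under 0.05 but none of these 6. Of 36 tests of a gene against its control, 1 was called and 4 had an unadjusted p under 0.05, as did 8.48 to 20.8% of all genes in each comparison.

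PDE4A at 0.01 µM and 6 weeks and PDE8A at 0.1 µM and 12 weeks also had groups without overlap, where 3.93 and 8.47% of tested genes did, and each reached the smallest exact permutation p of 0.0286 (adjusted 0.343). The PDE4A and PDE8A differences were small, -0.10 and 0.14 in log2 fold change, and edgeR did not call them. PDE3B, which was not among the genes tested by edgeR, had 1 to 3 counts per library at 1 µM and 12 weeks and 0 or 1 in the control. Its exact permutation p was also 0.0286 (adjusted 0.343), as the CPM values of the groups narrowly failed to overlap. Those groups share the value of 1 count, and all lie at or under the 3 counts that a count of 0 allows.

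**Figure D3:**
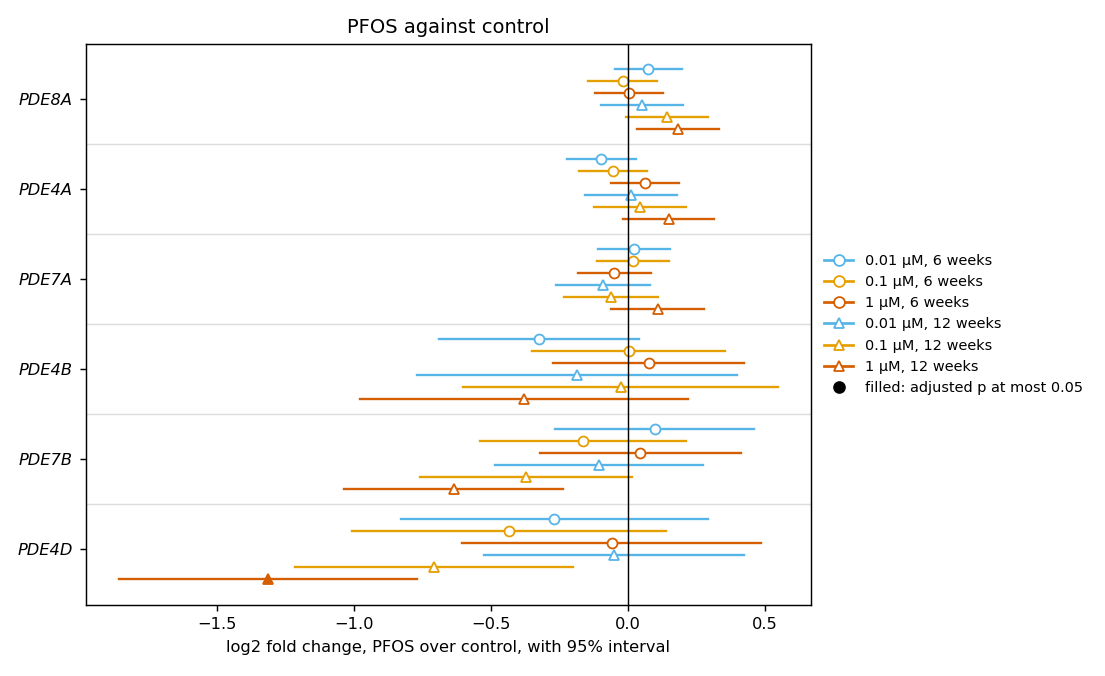
Log2 fold change of PFOS over the control of the same time for the 6 tested genes, with 95% intervals from the edgeR fit. Circles are 6 weeks and triangles 12 weeks, and a filled symbol marks an adjusted p of at most 0.05. PDE4D at 1 µM and 12 weeks is the only filled symbol, at -1.31.

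More of the genes differed between the times, in libraries of which many genes did. Of 24 tests of 12 against 6 weeks within a dose, 10 were called (edgeR). In the control 1 of 6 was called, where 36.6% of 12988 genes were. At 0.01 µM 2 of 6 were called beside 42.7% of genes, at 0.1 µM 3 of 6 beside 40.3% and at 1 µM 4 of 6 beside 30.1%. At 1 µM 3 of the 4 also passed 2-fold, as 3.09% of all genes did. The shares of the 6 in the control and at 0.01 µM were below those of all genes and the shares at 0.1 and 1 µM above them, with so few genes that 1 call moves them far, and cells lost and RNA lost per cell cannot be told apart in bulk RNA.

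PDE7B had the lowest adjusted p. In the control it had 56, 73, 53 and 43 counts at 6 weeks and the 45, 38, 54 and 30 given above at 12 weeks, which overlapped, and its log2 fold change of -0.43 (95% interval -0.80 to -0.05) was not called (adjusted p = 0.0661, edgeR). At 0.01 and 0.1 µM it fell by 0.62 and 0.63 on the log2 scale (edgeR adjusted p = 0.00619 and 0.00921), calls that ended at 0.01 µM without vial 1 (adjusted p = 0.0894) and at 0.1 µM without vial 1 or 3 (0.0664 and 0.0658). At 1 µM it had 67, 60, 63 and 40 counts at 6 weeks, all above the 20 to 33 at 12 weeks, and fell by 1.10 on the log2 scale (SE 0.197, edgeR adjusted p = 4.89e-05). The time change at 1 µM differed from that of the control by -0.68 (edgeR adjusted p = 0.32), which was not called.

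PDE4B was lower at 12 weeks in all 4 groups, the control and the PFOS doses, and was called in 3 of them. Control libraries had 44, 45, 33 and 37 counts at 6 weeks against 22, 24, 35 and 25 at 12 weeks, where replicate 3 of the 12-week control reached the 6-week range. The log2 fold change was -0.58 in the control (edgeR adjusted p = 0.0407), -0.61 at 0.1 µM (adjusted p = 0.0295) and -1.03 at 1 µM (adjusted p = 0.000912), and at 0.01 µM it was -0.44 (adjusted p = 0.14). At 1 µM the 48, 32, 49 and 37 counts at 6 weeks and the 10 to 32 at 12 weeks did not overlap on the CPM scale. Groups without overlap, as PDE4B, PDE4D and PDE7B had in that comparison, were found for 30.4% of tested genes. Leaving out vial 1, 2 or 4 ended the control call and leaving out vial 1, 3 or 4 that at 0.1 µM (adjusted p from 0.0869 to 0.224), and without control replicate 3 of 12 weeks PDE4B and PDE7B were both called.

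PDE4D was called between the times at 1 µM, and PDE4A at all 3 PFOS doses. PDE4D had 37.12, 23.74, 34.24 and 23.33 counts at 1 µM and 6 weeks, each above the 10 to 18 at 12 weeks, and fell by 1.08 on the log2 scale (SE 0.3, edgeR adjusted p = 0.00577), or by 0.88 without vial 3, when it was not called (adjusted p = 0.0729). In the control, at 0.01 and at 0.1 µM its log2 fold changes were 0.17, 0.39 and -0.11 and none was called. The 1 µM libraries of 12 weeks also enter the comparison with the control, so these 2 results on PDE4D share their low values. PDE4A was higher at 12 weeks by 0.22, 0.20 and 0.19 on the log2 scale at 0.01, 0.1 and 1 µM (edgeR adjusted p = 0.0121, 0.0197 and 0.0294) and by 0.10 in the control (adjusted p = 0.251). The PDE4A calls ended without vial 2 or 3 at 0.01 µM, without vial 1 or 4 at 0.1 µM and without any 1 vial at 1 µM (adjusted p from 0.0502 to 0.213). PDE7A and PDE8A were not called at any dose, with log2 fold changes between -0.16 and 0.10. Liver transcripts, at 41 to 86 counts in the 6-week and 129 to 1044 in the 12-week control, moved with time in the control, whereas at 1 µM they were 166 to 202 and 179 to 251, where PDE7B, PDE4B and PDE4D fell. Some markers of other cell types fell over the same weeks, and others rose. The leukocyte list, of which 2 of 4 genes were tested, had 1 lower in the control and 2 at 1 µM, with CD14 at -0.88 and -1.36 in log2 fold change, and its summed counts went from 494 to 562 down to 334 to 508 in the control and from 516 to 659 down to 299 to 454 at 1 µM. Of the 4 endothelial genes, all tested, 2 and 3 were lower, with PECAM1 at -2.65 and -3.15, and of 3 tested theca and stroma genes PDGFRA was lower in both, at -1.87 and -2.68, and LUM higher in the control, at 0.36. Of 3 epithelial genes, all tested, 1 was higher and 1 lower in the control, and 1 was lower at 1 µM. In the control summed epithelial counts were 23032 to 26753 at 6 weeks and 27254 to 29416 at 12. At 1 µM they were 24585 to 27921 and 27519 to 29233. Summed theca and stroma counts were 731 to 1041 and 811 to 1167 in the control. At 1 µM they were 857 to 999 and 909 to 1213. PTPRC, CDH5, VWF and PECAM1 were near 0 throughout, at medians of 0.08, 0.13, 0.1 and 0.08 TPM. The part of these lists in the phosphodiesterase differences was not tested.

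**Figure D4:**
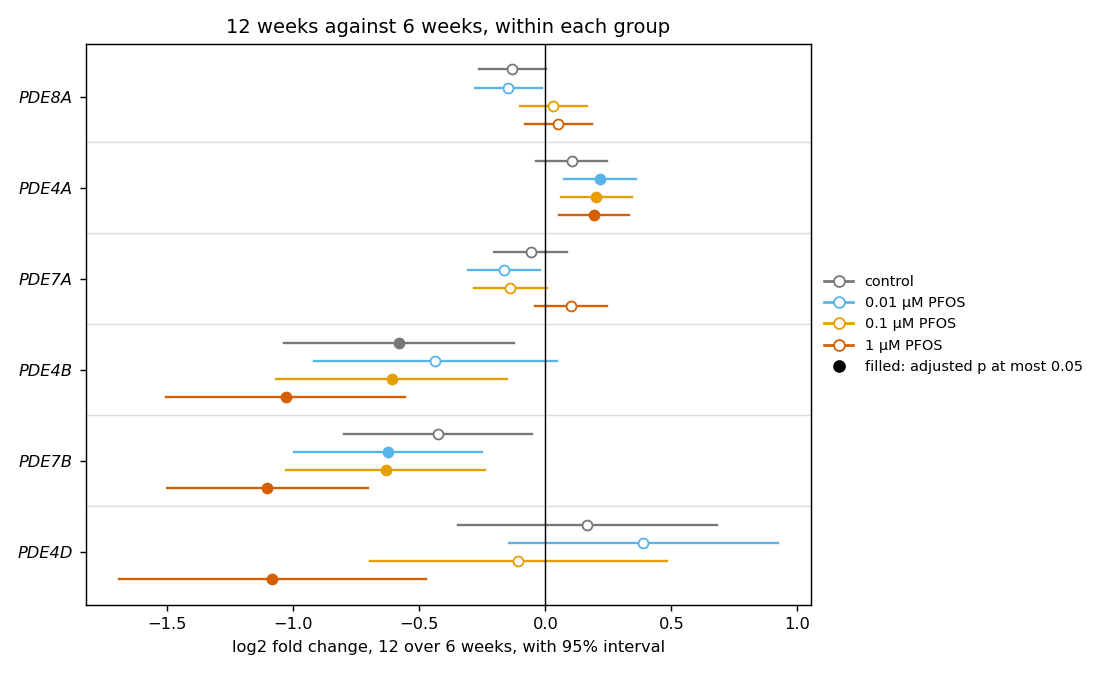
Log2 fold change of 12 over 6 weeks in each dose group for the 6 tested genes, with 95% intervals from the edgeR fit over 32 libraries, filled where the adjusted p is at most 0.05. PDE4B and PDE7B lie below 0 in every group, and PDE4D is called only at 1 µM, at -1.08.

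The rest of the cAMP pathway was read from gene lists. Against the control of their time, no PFOS dose called any of the other phosphodiesterases (7 tested), adenylyl cyclases (4 tested), the kinase A, kinase inhibitor and EPAC genes (11 tested at 6 weeks and 10 at 12), the AKAP anchoring proteins (12 tested) or the CREB family and its coactivators (10 tested). Of the receptors and G proteins, with 13 tested at 6 weeks and 12 at 12, ADORA2B, an adenosine receptor coupled to cAMP production, fell by 0.48 on the log2 scale at 0.1 µM and 12 weeks (edgeR adjusted p = 0.0179) and was the only call, which ended without vial 2, 3 or 4 and without control replicate 3 (adjusted p from 0.077 to 0.38). The gonadotropin receptor genes FSHR and LHCGR had no values.

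Genes known to respond to cAMP were called at 0.1 µM. At 6 weeks 4 of 19 tested were called, beside 4.24% of all genes, with NR4A3, an orphan nuclear receptor, at -1.32 and PER1, a clock gene, at -0.28, and the MAP kinase phosphatase DUSP1 at 0.26 in log2 fold change (edgeR adjusted p = 0.00385, 0.00683 and 0.0336). EGR1, named beyond the 3 lowest p-values, was the 4th, at 0.68. At 12 weeks, beside 1.07% of all genes, 4 of 19 fell, namely CITED2, a transcriptional co-regulator, by 0.43, DUSP1 by 0.45, TSC22D3, also a glucocorticoid target, by 0.66 and FOSB, named beyond the rule, by 0.91 on the log2 scale. Without vial 3 none of the 4 was called at 6 weeks (edgeR adjusted p from 0.0525 to 0.231) and only CITED2 at 12 weeks, when calls over all genes went from 136 to 4. Without vial 4 NR4A3 alone was called at 6 weeks and CITED2 alone at 12, as was CITED2 alone without control replicate 3. Vial 1 or 2 left out ended the 6-week calls of EGR1 or DUSP1, and vial 2 the 12-week calls of FOSB and TSC22D3. The medians of the 19 were 0.02 and -0.42, against 0.00 for all genes at both times. At 1 and 0.01 µM none of the 19 was called at either time, and their medians at 12 weeks were -0.23 and -0.27. In the difference between the 12-week and 6-week effects, 2 of the 19 were called at 0.1 µM, both lower, beside 0.208% of all genes. CITED2 was 1 of them (-0.46, edgeR adjusted p = 0.00174). At 1 µM CITED2 was the 1 gene called of the 19 (-0.36, edgeR adjusted p = 0.0266), beside 0.123% of all genes. Many of these genes also answer serum and stress signals. The list was chosen with earlier results of these data known, and the study itself names NR4A3 among its sensitive genes at 12 weeks. The counts therefore describe the list and do not test it.

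Between the times in the control, 11 of the 19 cAMP-responsive genes were called (8 higher, 3 lower), as were 4 of 8 other phosphodiesterases, 5 of 13 receptors and G proteins, 5 of 11 kinase A, inhibitor and EPAC genes, 3 of 10 CREB family genes and 1 each of 4 adenylyl cyclases and 12 AKAPs, beside 36.6% of all genes. PDE10A, which hydrolyses both cyclic nucleotides, was at 0.67 and PDE1C, a calcium and calmodulin-activated enzyme, at -1.07 in log2 fold change (edgeR adjusted p = 4.1e-06 and 3.27e-05). RAPGEF4, which encodes EPAC2, fell by 1.31 on the log2 scale, and PRKAR2B, a regulatory subunit of kinase A, fell by 1.48. At 1 µM the same 4 genes were called in the same directions, with log2 fold changes of 0.55, -0.94, -1.33 and -1.26.

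The genes whose log2(CPM + 1) followed the 3 phosphodiesterase genes of lowest adjusted p most closely over the 32 libraries were picked from 12644 and are given as a description, since these libraries share the 2 times. For PDE7B they were IRF1 (Pearson r 0.856), FAH (0.846) and DDAH2 (0.832), for PDE4B CD14 (0.843, the leukocyte gene that was lower at 12 weeks), SLC25A45 (0.835) and TNFSF10 (0.826), and for PDE4D LOC102724428 (0.669), GPR3 (0.653) and MEF2D (0.647). After removal of the group means the r of PDE7B with its 3 genes was 0.403 to 0.505, that of PDE4B 0.599 to 0.707 and that of PDE4D 0.458 to 0.629.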

How the data were processed

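RNA-seq of 32 HGrC1 libraries was analysed. Per the labels, poly(A) libraries were strand-specific and sequenced on DNBSEQ. The submitters' processing notes name HISAT2 2.0.4, Bowtie2 2.2.5, RSEM 1.2.8 and GRCh38.p14. The authors deposited RSEM expected counts per gene, in which reads that match several genes are divided, and TPM and FPKM values made from them, scaled by length and depth. The deposited normalized counts were not used.

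Expected counts were rounded, filtered with filterByExpr (minimum count 10) and scaled by TMM. PFOS against control and 1 against 0.1 µM were fitted by edgeR 4.0.16 (R 4.3.3, limma 3.58.1) with the quasi-likelihood test over all libraries of a time, and time and its interaction with dose over all 32. P-values were two-sided and adjusted over all genes tested, and 95% intervals came from the same fit. Exact permutation tests on log2(CPM + 1) covered the 10 genes singly. TPM was used for levels between genes and FPKM for 1 alternative. The test was checked on simulated counts with known changes. These held no vial effects, so the check cannot cover how calls depend on single vials. Intervals cover the spread between these libraries, and floors of 3 counts cover counting error only.

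The 10 genes and the pathway lists were chosen with earlier results of these data known. The genes named were the 10, at most 3 called genes per list and comparison by lowest adjusted p, and the 3 genes most correlated with each of the 3 members of lowest adjusted p. By the study's methods each vial was divided into the 4 groups. Equal replicate numbers were taken to be the same vial when vials were counted, left out or used as a block. The main tests compared groups without a term for the vial, both within a time and between the times. Between equal replicate numbers of a time, the mean correlation of deviations ran from -0.170 (control with 1 µM, 12 weeks) to 0.146. For control with 1 µM at 12 weeks it was 0.057 between unequal numbers. That equal numbers mark the same vial was therefore not shown there, and results by vial rest on that assumption. Alternatives were RLE scaling, other filters, DESeq2 1.42.0, a vial block, other sets of libraries and each vial left out. Others, DESeq2 without its filter on low means and the 12-week control without replicate 3, were chosen after seeing the data. Promoter windows were those of RefSeq (GRCh38.p14).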

Additional observations from a re-analysis of the deposited data

How the results depend on the processing

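The 180 recomputed counts were of called genes, of genes at the smallest permutation p and of genes above the TPM limit. Of these, 164 stayed within 1.5 times the value reported and 16 did not, but many of the 164 were 0 in both fits. None of 144 recomputed gene values reversed. These came from 14 pairs of gene and comparison called in at least 1 fit, so a reversal was unlikely from the outset. With 1 vial left out of every group, the genes called numbered 0 in each case (1 with all vials) for 1 µM against control at 12 weeks, 0 to 2 (1) for time in the control, 1 to 2 (2) at 0.01 µM, 0 to 3 (3) at 0.1 µM and 2 to 3 (4) at 1 µM. These fits hold fewer libraries. Without 12-week control replicate 3, chosen after seeing the data, 0 were called for 1 µM at 12 weeks and 2 for time in the control. With a limit of 0.5 TPM in place of 1, 5 genes rather than 3 counted as transcribed in the 6-week control. The vial, taken as the replicate number, changed no count of called genes when used as a block. PDE4D at 1 µM and 12 weeks then had an edgeR adjusted p of 0.00892, between groups whose equal numbers did not deviate alike. Over all genes the calls in that comparison numbered 28, 45 with the block and 8 to 136 over the alternatives. At 0.1 µM they numbered 544 and 22 to 739 at 6 weeks, 136 and 4 to 540 at 12 weeks, at 1 µM and 6 weeks 36 and 5 to 178, and at 0.01 µM 0, with at most 6 at 6 weeks and 4 at 12 weeks. Other fits that left out no vial and gave PDE4D at 1 µM and 12 weeks an adjusted p kept its call, with values from 0.00579 to 0.0356. The lowest came from the DESeq2 fit that was chosen after seeing the data. DESeq2 gave PDE4D there no adjusted p (log2 fold change -1.32), since its default filter set the gene aside, and that count was left out. Without the filter, chosen after seeing the data, its adjusted p was 0.00579. The permutation test with 1 vial left out was not run, as 3 against 3 libraries cannot go below 0.10. PDE4D, PDE4B and PDE7B had 10 to 76 counts per library, which limits their precision: at 1 µM and 12 weeks, 2 standard errors were a 1.44-fold, 1.49-fold and 1.31-fold change, against 1.10-fold for PDE8A.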
